A study of Mus musculus with 12 samples.

Results

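The brush border peptidases were followed here as 9 genes, Anpep, Enpep, Mep1a, Mep1b, Dpep1, Naaladl1, Xpnpep2, Dpp4 and Ace, of the 46078 genes counted in the deposited files. They were chosen by symbol, and their Ensembl identifiers were paired with symbols by GENCODE release M21. RNA-seq was performed on epithelium scraped from the proximal ileum in male mice of the C57BL/6 strain, which were gavaged with sesame oil vehicle or with 3, 10 or 30 µg/kg of the dioxin TCDD (2,3,7,8-tetrachlorodibenzodioxine in the labels), a persistent ligand of the aryl hydrocarbon receptor (AhR). Dosing began at 28 days of age and was given every 4 days, 7 times in all, and tissue was taken on day 28, at 56 days of age. Each of the 4 groups held 3 libraries. Every group received the same vehicle, and dose was the single difference between groups that the labels give. Because scrapings hold several cell types, fewer enterocytes and less mRNA per enterocyte cannot be told apart, and the p-values measure the spread between the 3 libraries of a group.

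The brush border is the carpet of microvilli on the luminal face of the enterocyte. Gastric and pancreatic proteases leave oligopeptides, which ectopeptidases anchored in the microvillar membrane cut to amino acids and to dipeptides and tripeptides, the substrates of the proton-coupled carrier PEPT1 (Slc15a1). Anpep encodes aminopeptidase N, which removes neutral amino acids from the amino end, and Enpep encodes aminopeptidase A, which removes acidic ones. Xpnpep2 encodes the membrane form of aminopeptidase P, and Dpp4 encodes dipeptidyl peptidase 4, which releases dipeptides next to proline. Ace encodes the angiotensin-converting enzyme, a dipeptidyl carboxypeptidase, and Dpep1 encodes a dipeptidase. Naaladl1 encodes a glutamate carboxypeptidase-like enzyme of the ileum, and Mep1a and Mep1b encode the α and β subunits of meprin, an endopeptidase of the astacin family.

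RefSeq promoter windows of GRCm38.p6 were matched for 7 of the 9 genes, with 8 windows in all since Ace has a second start. Naaladl1 and Mep1b had no entry. The windows of the most abundant member (Anpep), of the member whose level varied most with the clock score described further on (Ace) and of Mep1a, whose relation to that score did not pass, are shown 5′ to 3′, ending at the first annotated exon or the base before the RefSeq start. Capitals mark the AhR core motif.
Anpep promoter, chr7:79848211-79848460, minus strand: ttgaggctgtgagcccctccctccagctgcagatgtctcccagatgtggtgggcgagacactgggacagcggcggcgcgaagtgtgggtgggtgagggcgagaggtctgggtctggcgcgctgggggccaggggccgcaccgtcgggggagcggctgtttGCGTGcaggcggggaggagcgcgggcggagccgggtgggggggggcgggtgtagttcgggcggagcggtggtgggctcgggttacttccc
Ace promoter, chr11:105967698-105967944, plus strand: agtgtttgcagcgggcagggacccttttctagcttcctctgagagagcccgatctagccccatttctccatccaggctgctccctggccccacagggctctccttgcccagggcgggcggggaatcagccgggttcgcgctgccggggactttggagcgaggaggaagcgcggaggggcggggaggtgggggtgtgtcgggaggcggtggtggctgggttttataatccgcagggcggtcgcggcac
Mep1a promoter, chr17:43502813-43503023, minus strand: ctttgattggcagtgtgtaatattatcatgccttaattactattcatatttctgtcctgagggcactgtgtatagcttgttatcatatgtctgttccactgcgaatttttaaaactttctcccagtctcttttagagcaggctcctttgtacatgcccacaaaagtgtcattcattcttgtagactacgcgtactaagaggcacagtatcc
The Anpep start used by RefSeq lies inside the gene as annotated by GENCODE. Over the full 250 bases before each start, also where fewer are shown, both strands were searched for GCGTG, the core of the AhR response element, CACGTG, the E-box bound by CLOCK and BMAL1, and TTATGTAA, the D-box bound by DBP. The search found 1 match among the 8 windows, a GCGTG in the Anpep window, written above in capitals. GCGTG was present in 28.2% of the 32851 RefSeq windows of this length, CACGTG in 6.02% and TTATGTAA in 0.819%. A match of letters is not evidence of binding, and these windows do not cover distal elements.

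In GRCm38, Anpep (ENSMUSG00000039062) lies on chromosome 7 from 79821803 to 79861059 and Enpep (ENSMUSG00000028024) on chromosome 3 from 129269175 to 129332720. Mep1a (ENSMUSG00000023914) lies on chromosome 17 from 43474324 to 43502812 and Mep1b (ENSMUSG00000024313) on chromosome 18 from 21061923 to 21100199. Dpep1 (ENSMUSG00000019278) lies on chromosome 8 from 123186242 to 123201812 and Naaladl1 (ENSMUSG00000054999) on chromosome 19 from 6105782 to 6115792. Xpnpep2 (ENSMUSG00000037005) lies on chromosome X from 48108725 to 48136981, Dpp4 (ENSMUSG00000035000) on chromosome 2 from 62330073 to 62412231 and Ace (ENSMUSG00000020681) on chromosome 11 from 105967945 to 105989964. The setting for strand in the counting is not given in the sources used here, so reads of antisense neighbours could be shared. Those neighbours held few reads, 0 to 6 per library for Gm13561 at Dpp4 and 7 to 86 for Gm11651 at Ace. Gm20388, a readthrough gene on the strand of Dpep1, was at 0 in every library, and reads in exons it shares with Dpep1 could have been set aside as ambiguous.

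All 9 genes passed the filter on low counts, which left 15823 genes. Together they took between 1.68% and 2.49% of the gene counts of a library. By mean CPM (counts scaled to library size by the trimmed mean of M-values), Anpep ranked 4 among all tested genes, Ace 34, Enpep 39, Dpp4 67, Mep1b 89 and Naaladl1 119. Xpnpep2 ranked 411, Dpep1 587 and Mep1a 823. Per kilobase of exon, the vehicle level was 2989 CPM/kb ± 430 (SD, n = 3) for Anpep and 633 ± 108 for Ace, and the libraries of these genes did not overlap. It was 482 ± 87.8 for Enpep, 443 ± 39.4 for Mep1b and 431 ± 50.4 for Naaladl1, and each of these neighbours in the order overlapped, as did Ace and Enpep. Dpp4 followed at 243 ± 14.3 CPM/kb, Dpep1 at 103 ± 13.8 and Xpnpep2 at 69.7 ± 4.86, each clear of its neighbour above. Mep1a was lowest at 66.8 ± 18.5 CPM/kb and overlapped Xpnpep2. The transcript of the α subunit of meprin was thus scarcer per kilobase than that of the β subunit, without overlap between their vehicle libraries.

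Library depth ranged from 11695887 to 22180274 gene counts. Cyp1a1, the classical AhR target, followed the dose labels, with means of 23.0 CPM ± 4.27 in vehicle and, by ascending dose, 77.4 ± 60.0, 1074 ± 235 and 2979 ± 334 CPM (SD, n = 3), with 1 library at 3 µg/kg (22.2 CPM) inside the vehicle range of 18.9 to 27.5 CPM. The 8 enterocyte markers (Fabp1, Fabp2, Apoa1, Apoa4, Apob, Alpi, Vil1 and Krt20) were all detected and summed to between 29225 and 39281 CPM over the libraries, with overlapping ranges in the 4 groups. Paneth cell markers summed to 661 to 1002 CPM in vehicle and 2074 to 2793 CPM at 30 µg/kg, and enteroendocrine markers to 127 to 137 and 206 to 235 CPM. Smooth muscle markers ranged from 13.6 to 179 CPM and endothelial markers from 11.1 to 34.3 CPM over all libraries, and pancreatic acinar markers summed to 5.47 to 6.75 CPM in vehicle and 0.226 to 2.20 CPM with TCDD. Single markers differed between doses. The distal enterocyte genes Fabp6 (31.2 CPM ± 7.78) and Fgf15 (1.79 ± 0.357) were called higher at 3 µg/kg, with group means of at most 0.198 and 0.0650 CPM elsewhere. The colon genes Car1 (53.8 CPM ± 9.35) and Aqp8 (5.05 ± 0.488) were called higher at 10 µg/kg, where the other groups had Car1 at 0 and Aqp8 at means of at most 0.422 CPM. The goblet cell genes Tff3, Zg16, Spink4 and Agr2 were called higher at 30 µg/kg, by 0.82 to 0.99 on the log2 scale (edgeR adjusted p 0.00153 to 0.00435). The other goblet markers, Muc2 (0.26), Fcgbp (0.07) and Clca1 (0.03), were not called. Summed goblet markers overlapped, at 12742 to 16671 CPM in vehicle and 16396 to 17827 CPM at 30 µg/kg. The part of these other cells and regions in the peptidase levels was not tested.

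The first comparison asked whether TCDD changed the peptidase mRNAs at any dose. A call required an edgeR adjusted p under 0.05 and at least a 1.5-fold change. None of the 9 genes was called at 3, 10 or 30 µg/kg against vehicle, where 0.228%, 0.613% and 3.97% of all tested genes were called. None was called between 3 and 10 µg/kg (0.158% of all genes), between 10 and 30 µg/kg (2.77%) or in the trend over the 4 dose ranks (4.04%), and none differed among the 4 groups in the joint test on adjusted p alone (6.78%). At an unadjusted p under 0.05, 0 members passed against vehicle at the lowest dose, 2 at the middle dose (Mep1a and Naaladl1), 2 at the highest (Mep1b and Naaladl1) and 3 in the trend (Mep1b, Naaladl1 and Dpp4), where 11.4%, 15.9%, 21.6% and 22.6% of all genes did so. In the same order of comparisons, the median log2 change of the 9 members was -0.14, -0.29, -0.28 and -0.31 and that of all genes 0.0017, -0.0096, -0.02 and -0.02. The fitted change was under 0 for 7, 8, 7 and 9 of the 9 members and for 49.7%, 51.4%, 52.2% and 52.7% of all genes. These comparisons share the vehicle libraries. Between neighbouring doses, 2 members passed at an unadjusted p under 0.05 from 3 to 10 µg/kg (Mep1a and Naaladl1) and 1 from 10 to 30 µg/kg (Mep1b). In the joint test the lowest edgeR adjusted p were those of Naaladl1 (0.0727, unadjusted 0.00669) and Mep1b (0.0825, unadjusted 0.00858). DESeq2 called 1 member at 10 µg/kg, where it called 262 of 15821 genes, and none in the other dose comparisons or the trend. Its joint test passed 2 members and 2143 of 15821 genes, against 1073 of 15823 genes by edgeR.

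**Figure D1:**
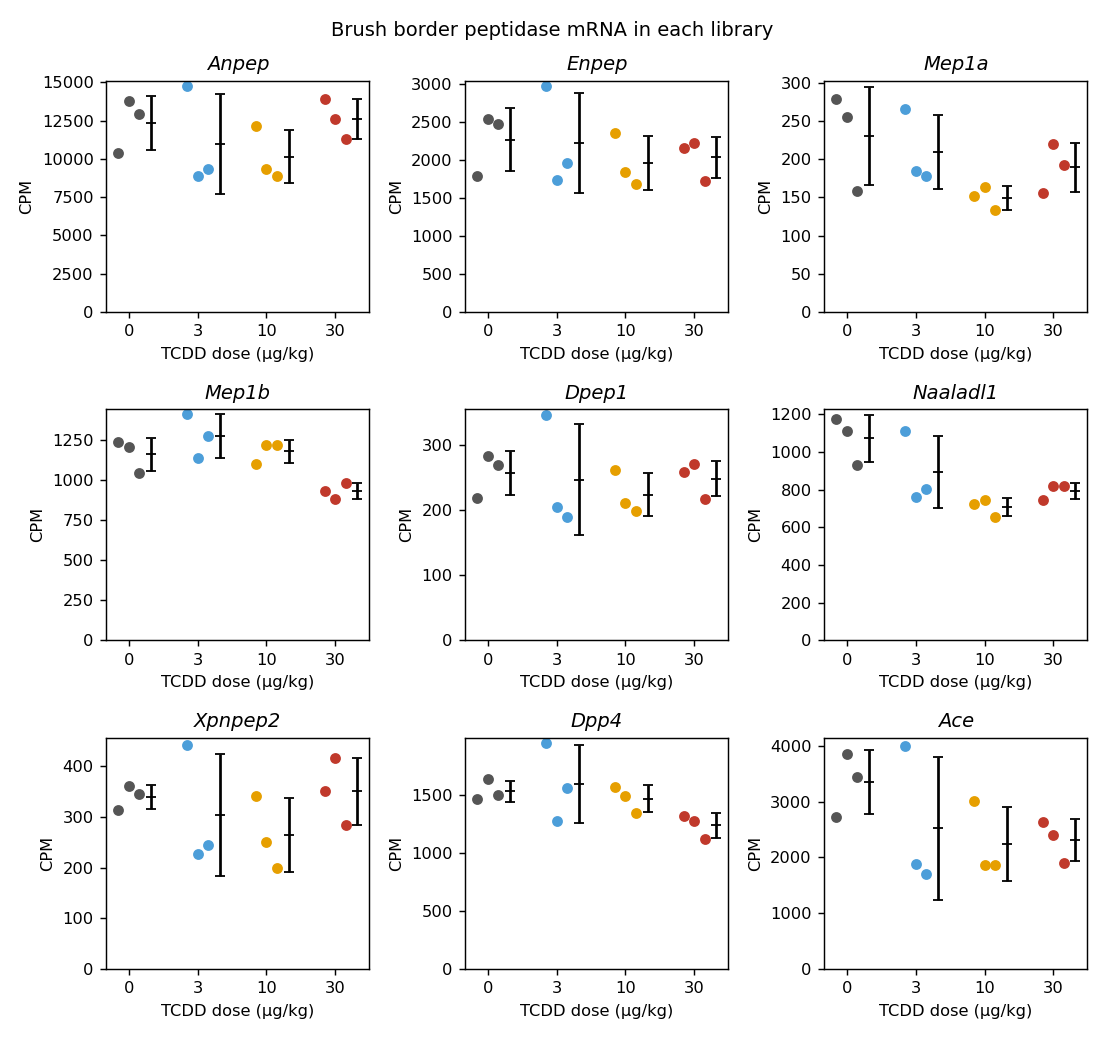
CPM of the 9 brush border peptidases against TCDD dose (µg/kg), one point per library, with the mean and SD (n = 3) of each dose as a black bar; each panel has its own linear axis from 0. Naaladl1 sits lower at 10 and 30 µg/kg than in vehicle and Mep1b is lowest at 30 µg/kg, while the Ace libraries at 3 µg/kg spread from 1698 to 4007 CPM.

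Naaladl1 had the lowest adjusted p of the members in the trend. Its vehicle libraries held 1173, 1114 and 932 CPM, those at 3 µg/kg 1112, 760 and 805 CPM, those at 10 µg/kg 722, 747 and 657 CPM and those at 30 µg/kg 743, 818 and 819 CPM. All 6 libraries at 10 and 30 µg/kg lay under the lowest vehicle library, and 1 of the 3 libraries at 3 µg/kg lay within the vehicle range. By edgeR, 3 µg/kg gave a log2 change of -0.27 (SE 0.14, adjusted p 0.504), 10 µg/kg gave -0.60 (SE 0.14, adjusted p 0.0884) and 30 µg/kg gave -0.44 (SE 0.14, adjusted p 0.0960). Over the dose ranks the trend was -0.49 (SE 0.14), and its edgeR adjusted p of 0.0491 passed the threshold while its size of 1.41-fold stayed under the fold limit. It was the 1 member among 9 with a lower trend at this adjusted p, against 2.11% of all genes. Over 22 alternative fits the adjusted p of this trend ranged from 0.00993 to 0.143, and it was under the threshold in 11. The call at 10 µg/kg was made in 3 of 23 alternative fits, by DESeq2 (log2 change -0.60, adjusted p 0.00736), with no filter on low counts (adjusted p 0.0148) and without replicate 1 of the 3 µg/kg group (adjusted p 0.0132).

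Of the meprin subunits, Mep1b had its lowest group mean at 30 µg/kg and Mep1a at 10 µg/kg. Mep1b held 1237, 1205 and 1044 CPM in vehicle, 1414, 1137 and 1279 CPM at 3 µg/kg, 1100, 1221 and 1222 CPM at 10 µg/kg and 930, 881 and 983 CPM at 30 µg/kg. The 3 libraries at 30 µg/kg were the lowest of the 12. Its log2 change at 30 µg/kg was -0.32 against vehicle (SE 0.11, edgeR adjusted p 0.114) and -0.34 against 10 µg/kg (SE 0.11, edgeR adjusted p 0.0961), and at 10 µg/kg against vehicle it was 0.02 (95% confidence interval -0.22 to 0.26). DESeq2 gave the change at 30 µg/kg an adjusted p of 0.0382 at a log2 change of -0.32, under the fold limit, and over 23 alternative fits the adjusted p ranged from 0.0382 to 0.249.

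Mep1a held 279, 255 and 158 CPM in vehicle, 265, 184 and 179 CPM at 3 µg/kg, 152, 163 and 133 CPM at 10 µg/kg and 156, 220 and 193 CPM at 30 µg/kg. One vehicle library was as low as those at 10 µg/kg, so these groups overlapped. Neither the change at 10 µg/kg (-0.63 on the log2 scale, SE 0.21, edgeR adjusted p 0.186) nor that at 30 µg/kg (-0.28, SE 0.21, edgeR adjusted p 0.464) passed.

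Dpp4 and Ace both release dipeptides, and neither passed at 30 µg/kg. Dpp4 had its lowest group mean at 30 µg/kg and Ace at 10 µg/kg. Dpp4 held 1467, 1638 and 1500 CPM in vehicle, 1954, 1280 and 1562 CPM at 3 µg/kg, 1574, 1491 and 1348 CPM at 10 µg/kg and 1324, 1276 and 1121 CPM at 30 µg/kg. The libraries at 30 µg/kg lay under all those of vehicle and of 10 µg/kg, with a log2 change from vehicle of -0.31 (SE 0.14, edgeR adjusted p 0.233). Ace held 2732, 3867 and 3444 CPM in vehicle, 4007, 1876 and 1698 CPM at 3 µg/kg, 3014, 1864 and 1867 CPM at 10 µg/kg and 2634, 2399 and 1892 CPM at 30 µg/kg. One library at 3 µg/kg was the highest of the 12 and another was the lowest, and the 30 µg/kg libraries lay under all 3 vehicle libraries but among those at 3 and 10 µg/kg. By dose, Ace had log2 changes of -0.41, -0.57 and -0.54 (SE 0.30 each), with an edgeR adjusted p of 0.327 and an interval from -1.19 to 0.12 at the highest dose. The value at 3 µg/kg rested on single libraries, with -0.91 without replicate 1 of that group, -0.23 without replicate 2 and -0.19 without replicate 3.

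Counted by libraries alone, 4 of the 9 genes (Mep1b, Naaladl1, Dpp4 and Ace) had 30 µg/kg libraries that all lay under the vehicle libraries, and this held for 12.5% of all tested genes. At 10 µg/kg it held for 1 member, Naaladl1, and 11% of all genes. At 3 µg/kg no member was separate from vehicle in either direction, against 15.4% of all genes. The 10 µg/kg libraries lay under those at 3 µg/kg for Mep1a and Naaladl1 (2 of 9, against 4.25% of all genes), and the 30 µg/kg libraries under those at 10 µg/kg for Mep1b and Dpp4 (2 of 9, against 13.5%).

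The aminopeptidases (Anpep, Enpep and Xpnpep2) and the dipeptidase Dpep1 passed no dose test, and their group means were lowest at 10 µg/kg. Anpep held 10374, 13800 and 12901 CPM in vehicle, 14732, 8859 and 9344 CPM at 3 µg/kg, 12112, 9364 and 8902 CPM at 10 µg/kg and 13900, 12579 and 11271 CPM at 30 µg/kg. Vehicle and 30 µg/kg libraries covered nearly the same range, and the log2 change was 0.03 with a 95% confidence interval from -0.43 to 0.48. Enpep ranged from 1684 to 2973 CPM over the 12 libraries, with -0.16 (interval -0.61 to 0.30) at 30 µg/kg. Dpep1 ranged from 190 to 345 CPM, with -0.05 (interval -0.49 to 0.39), and Xpnpep2 from 198 to 443 CPM, with 0.04 (interval -0.50 to 0.58). At 30 µg/kg the intervals of Anpep, Mep1b, Dpep1 and Xpnpep2 lay inside the limits of a 1.5-fold change in either direction. Those of Enpep, Mep1a, Naaladl1, Dpp4 and Ace reached past a 1.5-fold decrease, so a decrease of that size lies within the error of 3 libraries a group.

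**Figure D2:**
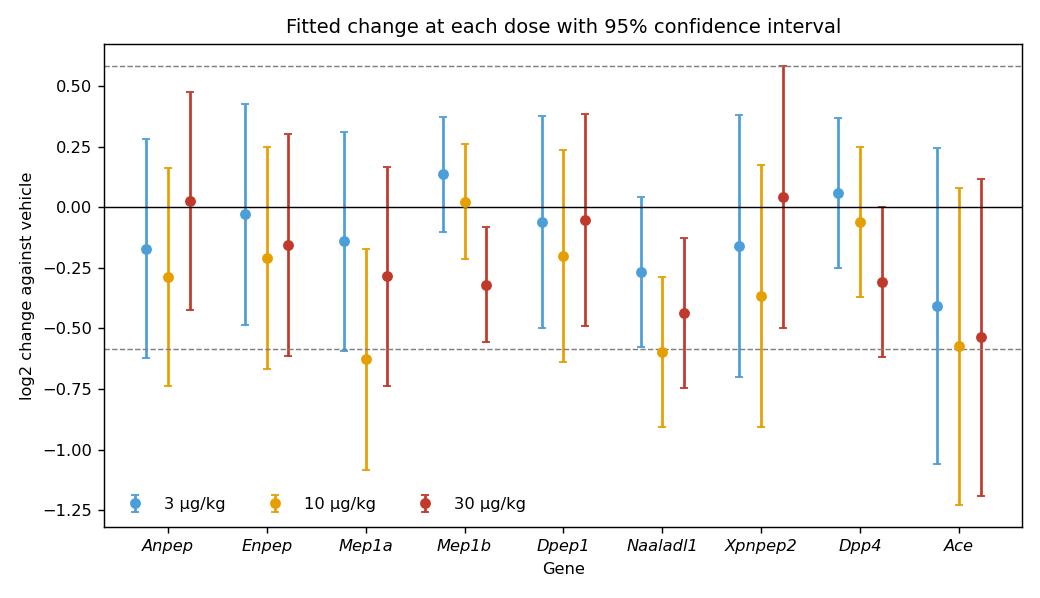
Fitted log2 change against vehicle of each peptidase at 3, 10 and 30 µg/kg TCDD (points) with 95% confidence intervals from edgeR (bars); dashed lines mark a 1.5-fold change. The intervals of Naaladl1 at 10 and 30 µg/kg, Mep1a at 10 µg/kg and Mep1b at 30 µg/kg lie under 0, before any adjustment for the number of genes tested.

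Within a dose, several peptidases varied together. The coefficient of variation of Ace was 50.9% at 3 µg/kg and that of Mep1b between 5.48% and 10.8% over the groups. After each dose mean was subtracted, the log2 CPM values of Anpep, Enpep, Dpep1, Xpnpep2 and Ace correlated with each other over the 12 libraries with Pearson's r of 0.90 to 0.98, and Dpp4 correlated with these 5 at 0.82 to 0.88. Mep1a and Naaladl1 correlated with each other at 0.89, and Mep1b with Naaladl1 at 0.73, but Mep1b with Anpep at 0.14 and with Enpep at 0.03. The libraries share their dose means and scaling, and these values are given as a description.

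The libraries also differed within doses in their circadian clock genes, and this was examined after the data were seen. A clock score was computed for each library as the mean standardized level of Dbp, Tef, Hlf, Nr1d1, Nr1d2, Per2, Per3 and Ciart minus that of Arntl, Npas2, Clock and Nfil3, divided by 2. It fell into separate clusters, from 0.569 to 1.08 in 6 libraries (replicates 2 and 3 of vehicle, replicate 1 at 3 µg/kg, replicate 1 at 10 µg/kg and replicates 1 and 2 at 30 µg/kg) and from -1.15 to -0.400 in the other 6. With the 4 dose groups in the edgeR model, 5 members rose with the score, Ace by 0.38 log2 per unit (SE 0.059, adjusted p 0.000598), Xpnpep2 by 0.29 (SE 0.061, adjusted p 0.00665), Enpep by 0.27 (SE 0.042, adjusted p 0.000602), Dpep1 by 0.25 (SE 0.045, adjusted p 0.00223) and Anpep by 0.25 (SE 0.045, adjusted p 0.00262). Among all tested genes, 5.86% rose with it. Dpp4 had 0.12 per unit (SE 0.045, edgeR adjusted p 0.105) and passed with DESeq2 (adjusted p 0.0393). The coefficients of Naaladl1 (0.04, interval -0.08 to 0.16), Mep1a (0.01, interval -0.17 to 0.18) and Mep1b (-0.02, interval -0.12 to 0.07) did not pass. The same 5 genes passed in each of the 12 fits that left out a library and after trends with length and GC content were removed.

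The ordering could be read off the libraries of each dose. For Anpep, Enpep, Dpep1, Xpnpep2, Dpp4 and Ace, every library with a positive score lay above every library with a negative score in all 4 groups, which held for 6 of 9 members and 7.64% of all tested genes. For Ace, the positive libraries held 3444 and 3867 CPM against 2732 in vehicle, 4007 against 1698 and 1876 at 3 µg/kg, 3014 against 1864 and 1867 at 10 µg/kg, and 2399 and 2634 against 1892 at 30 µg/kg. For Mep1a, Mep1b and Naaladl1 the order was mixed. Summed over the 9 genes, the positive libraries held 21080 to 27246 CPM and the negative ones 16210 to 19587 CPM. This sum was made up mostly of Anpep, with a mean of 11512 CPM over all libraries.

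Other measures were set beside the score. The summed enterocyte markers spanned 29225 to 39281 CPM in the positive and 30544 to 37162 CPM in the negative libraries, and depth, scaling factor and the share of entries outside genes were mixed in order. The 6 markers of distal enterocytes summed lower in the positive libraries in all 4 groups (2414 to 3027 CPM against 3844 to 4961 CPM), a sum made up mostly of Muc13, with group means of 3068 to 3716 CPM. Muc13 had -0.45 log2 per unit and Slc51b -0.51, whereas Slc10a2 had 0.65, Fgf15 0.22, Fabp6 0.21 and Slc51a 0.09. The median of the 6 was 0.15, of opposite sign to the sum, and Muc13, Slc51b and Slc10a2 passed. The 6 colon epithelium markers, of which 4 passed the filter on low counts, summed higher in the positive libraries of each dose. Their overall ranges overlapped, at 260 to 368 and 234 to 361 CPM. The labels give no time of harvest or position along the ileum for single animals, and their part in these levels was not tested.

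**Figure D3:**
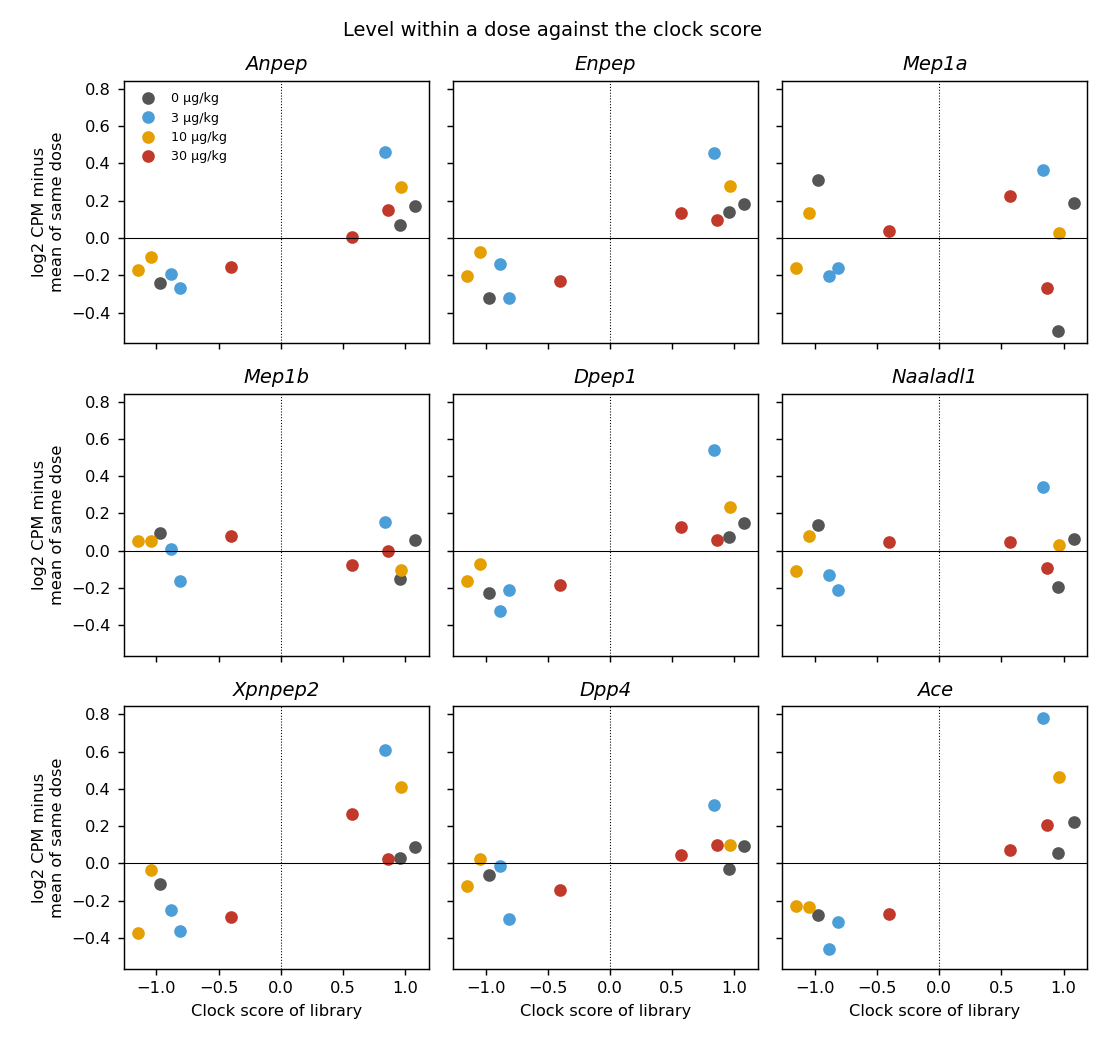
Log2 CPM of each peptidase minus the mean of the same dose, against the clock score of the library, for the 12 libraries coloured by dose. For 6 genes the points at positive scores lie above those at negative scores within each dose, with the steepest relation for Ace (0.38 log2 per unit), and for Mep1a, Mep1b and Naaladl1 they do not.

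When the clock score was added to the model, the dose comparisons had smaller errors for the genes that followed it. The SE of the change at 30 µg/kg went from 0.21 to 0.11 for Anpep and from 0.30 to 0.14 for Ace. Positive scores were held by replicates 2 and 3 of vehicle but only by replicate 1 at 10 µg/kg. There the log2 change went from -0.29 to -0.10 for Anpep, -0.21 to 0.0037 for Enpep and -0.20 to -0.01 for Dpep1. It went from -0.37 to -0.18 for Xpnpep2 and from -0.57 to -0.31 for Ace. Naaladl1 went from -0.60 to -0.57 and Mep1a from -0.63 to -0.62. The part of this imbalance in the dose means was not tested. Ace had a log2 change of -0.54 (edgeR adjusted p 0.0242) at 30 µg/kg and -0.51 in the trend (edgeR adjusted p 0.0243), and Naaladl1 had -0.44 (edgeR adjusted p 0.0465) and -0.49 (edgeR adjusted p 0.0206). The Mep1b trend was -0.32 (edgeR adjusted p 0.0418). All of these were under the 1.5-fold limit, so no member was called against vehicle. Anpep kept a change of 0.03 (SE 0.11) at 30 µg/kg. The test of any difference passed for Mep1b (edgeR adjusted p 0.0448) and Naaladl1 (edgeR adjusted p 0.0386). It also passed for more of all 15823 genes, 2054 with the score and 1073 without it. At 30 µg/kg against vehicle, 866 genes were called with the score and 628 without it.

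The remaining genes of peptide digestion and uptake were counted in the same way at 30 µg/kg against vehicle. Of 16 other surface peptidases 12 were tested and none was called (median log2 change -0.06). The largest changes were those of Dpep2, a dipeptidase (1.30, edgeR adjusted p 0.151), and Naalad2, a carboxypeptidase (-1.12, edgeR adjusted p 0.364). Both were scarce, with means in vehicle and at 30 µg/kg of 0.463 and 1.14 CPM for Dpep2 and 0.644 and 0.269 CPM for Naalad2. Mme came next (-0.71, edgeR adjusted p 0.163), from 1656 CPM ± 410 in vehicle to 1010 ± 278 at 30 µg/kg (SD, n = 3). Of 19 cytosolic peptidases none was called (median -0.03), led by Thop1, thimet oligopeptidase (0.64, edgeR adjusted p 0.0832), and Prep, prolyl endopeptidase (0.52, edgeR adjusted p 0.0787). Of 14 peptide and amino acid carriers and partners none was called (median -0.19). The largest changes there were those of Slc36a1, a proton-coupled amino acid carrier (-0.70, edgeR adjusted p 0.0516), and Slc9a3, the sodium-proton exchanger of the brush border (-0.50, edgeR adjusted p 0.619). Slc16a10, an aromatic amino acid carrier, had -0.49 (edgeR adjusted p 0.0471), under the fold limit. Slc36a1 was called in the trend, where it fell by 0.68 on the log2 scale (edgeR adjusted p 0.0443), from 495 CPM ± 62.6 in vehicle to 306 ± 71.0 at 30 µg/kg (SD, n = 3). PEPT1 (Slc15a1), which takes up the products of the peptidases, had 0.24 (SE 0.31, edgeR adjusted p 0.712).

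None of 11 genes of microvillus structure was called (median -0.02), with the largest changes in Espn, espin (0.26, edgeR adjusted p 0.217), and Ush1c, harmonin (0.24, edgeR adjusted p 0.226). Of 10 other brush border enzymes 1 was called (median -0.13). Akp3, an intestinal alkaline phosphatase, fell by 3.70 on the log2 scale (SE 0.82, edgeR adjusted p 0.0193). Treh, trehalase, had -0.47 (edgeR adjusted p 0.0427), under the fold limit. None of 11 regulators of enterocyte identity was called (median 0.04), with the largest change in Klf5 (0.51, edgeR adjusted p 0.00615, under the fold limit). By contrast all 4 AhR targets were called, with log2 changes of 7.01 for Cyp1a1, 5.53 for Cyp1b1, 3.85 for Ahrr and 1.38 for Tiparp.

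**Figure D4:**
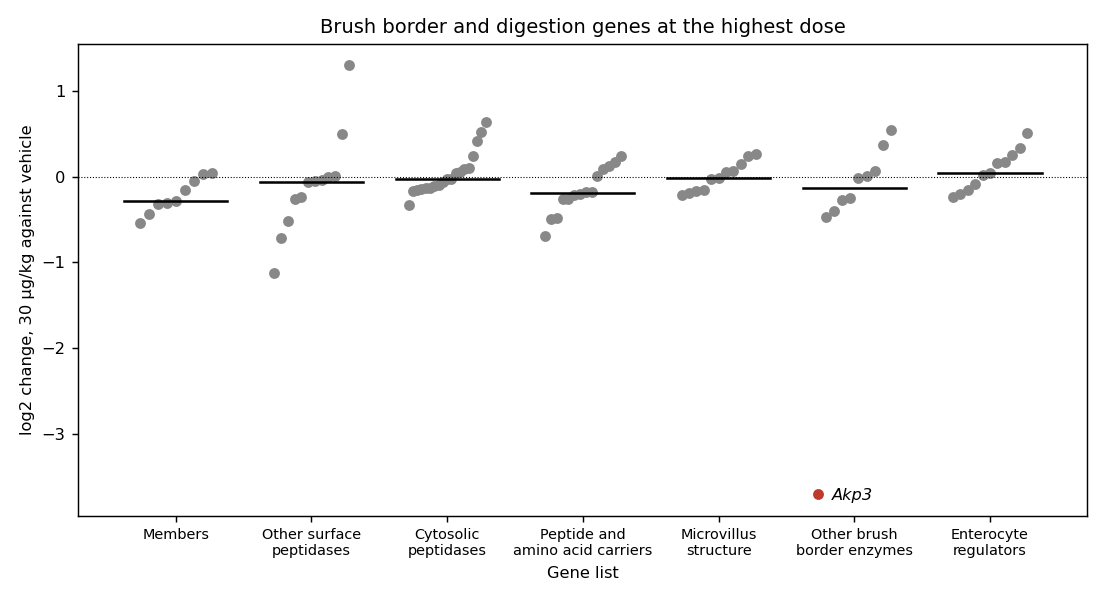
Log2 change at 30 µg/kg TCDD against vehicle for the 9 peptidases and the tested genes of 6 other lists, one point per gene sorted by value, with the list median as a black line; red marks a call. Akp3 at -3.70 is the single call, and the peptidases run from -0.54 (Ace) to 0.04 (Xpnpep2).

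The clock score was also set against the carriers. Of 14 carriers and partners, 9 rose with the score and 1 fell, with a median of 0.24 log2 per unit, where 928 of 15823 genes rose and 716 fell. Among the other surface peptidases, Ggt1 rose by 0.33 and Mme by 0.38 (edgeR adjusted p 9.16e-05 and 0.000164). Slc15a1 rose by 0.43 (SE 0.050, edgeR adjusted p 6.69e-05) and Slc7a8, a basolateral amino acid exchanger, by 0.50 (SE 0.053, edgeR adjusted p 2.63e-05), and Slc9a3 fell by 0.74 (SE 0.054, edgeR adjusted p 8.54e-07).

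The genes whose log2 CPM over the 12 libraries was most like each peptidase were sought among 8027 others with a mean of at least 10 CPM. For Anpep they were Smim24, Sult2b1 and Slc3a2, the last the heavy chain of several amino acid exchangers (r = 0.97 to 0.98). For Enpep they were Slc16a5, Cdc42se2 and Specc1l (0.97 to 0.99), for Dpep1 Apc, Foxo3 and Arl5b (0.97 to 0.98) and for Xpnpep2 Dido1 and Myrfl (0.95 to 0.96). For Ace they were Igsf3, Tbc1d5 and Crat (0.96), and for Dpp4 Asah2, Mfsd9 and Rufy3 (0.93 to 0.96). For Naaladl1 they were Ptprg, Npc1l1, the cholesterol uptake protein of enterocytes, and Cachd1 (0.93 to 0.96), for Mep1b Panx1, Fuca2 and Cmtm4 (0.95 to 0.97) and for Mep1a Tspan15, App and Gas6 (0.89 to 0.90). These correlations describe shared variation over the same 12 libraries.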

How the data were processed

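RNA-seq counts of 12 libraries were used, in 4 dose groups of 3. The authors deposited raw counts per gene, made per the labels and the submitters' processing notes with Trimmomatic 0.33, TopHat2 2.1.0, SAMtools 1.2.0 and HTSeq 0.6.1 on GRCm38. The annotation release and the strand setting are not given in the sources used here. Entries for reads outside genes, ambiguous or not unique made up 60.3% to 64.6% of all entries and were left out. Of 46078 genes, 45143 were matched to GENCODE M21. Counts were fitted with edgeR 4.0.16 (R 4.3.3) by the quasi-likelihood test, with 1 fit over the 4 groups, TMM scaling, filterByExpr and Benjamini-Hochberg adjustment over all 15823 genes. A gene was called at an adjusted p under 0.05 and at least 1.5-fold. The trend is the fitted log2 change over the whole range of dose ranks from a linear contrast of group means. Levels are TMM-scaled CPM, and log2 CPM used a prior count of 2. The fit was tested on simulated data. Alternatives were other scalings and filters, limma-voom (limma 3.58.1), DESeq2 1.42.0, fits of the compared groups alone, the library index and the clock score as covariates, offsets for length and GC content, and leaving out each library. The members and lists were chosen with earlier results of these data known. All members were named in every comparison. From the other function lists the genes called at 30 µg/kg were named or, where a list had none, the 2 with the largest change, and per member the 3 genes most similar over the libraries. Ggt1, Mme, Treh, Slc16a10, Fabp6, Fgf15, Slc51a, Car1, Aqp8, Tff3, Zg16, Spink4, Agr2, Muc2, Fcgbp, Clca1, Slc15a1, Slc7a8, Slc51b, Muc13 and Slc10a2 were named after their values were seen, as were the list genes given with the clock score. Some genes that these rules name are not reported here.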

Additional observations from a re-analysis of the deposited data

How the results depend on the processing

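Of 800 values recomputed under the alternatives, 754 kept their direction and call, 37 changed sign and 9 gained a call. The values are log2 changes of single members and counts of members, so a call can enter as both. Counts within a factor of 1.5 were taken as kept. An adjusted p that crossed 0.05 at less than 1.5-fold was not taken as a change. Fits without a library of a group outside the comparison were not among the 800. No member was called at 10 µg/kg in the main analysis, and 1 (Naaladl1) was called with no filter on low counts and 1 (Naaladl1) with DESeq2. These 2 fits called 215 of 28360 and 262 of 15821 genes, against 97 of 15823 in the main analysis. The number of members with any difference among groups, 0 in the main analysis, was 1 with upper-quartile scaling (Naaladl1), 1 with no filter (Naaladl1), 2 with the clock score as covariate and 2 with DESeq2 (Mep1b and Naaladl1 in each). Over all genes, 1073 of 15823 passed this test in the main analysis, 1100 of 15823 with upper-quartile scaling and 1377 of 28360 with no filter. With the clock score as covariate 2054 of 15823 passed, and with DESeq2 2143 of 15821. Leaving out a library gave 0 to 1 members in this test, the 1 being Naaladl1 without replicate 1 of the 3 µg/kg group. In that fit 1745 of 16283 genes passed. The cause was not tested.

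All changes of sign were in log2 changes that had not passed, the largest of 0.21 in size. With the clock score as covariate, the sign turned for Enpep at 3 µg/kg (0.13) and 10 µg/kg (0.0037), Dpep1 at 3 µg/kg (0.0672), Dpp4 at 10 µg/kg (0.0320) and the Anpep trend (0.0094, and 0.00089 with limma-voom). With length and GC trends removed it turned for Dpep1 at 3 µg/kg (0.0126) and Mep1b at 10 µg/kg (-0.0087). Leaving out a library moved the change at 3 µg/kg over -0.30 to 0.12 for Enpep, -0.37 to 0.0023 for Mep1a, -0.39 to 0.10 for Dpep1, -0.54 to 0.0164 for Xpnpep2 and -0.12 to 0.20 for Dpp4. At 10 µg/kg it moved Mep1b over -0.0433 to 0.0811 and Dpp4 over -0.11 to 0.00028. At 30 µg/kg it moved Anpep over -0.0773 to 0.11, Dpep1 over -0.15 to 0.0370 and Xpnpep2 over -0.0945 to 0.18, and in the trend Anpep over -0.10 to 0.0783, Dpep1 over -0.17 to 0.0173 and Xpnpep2 over -0.14 to 0.10.

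No paired analysis was possible because the labels give no replicate numbers or other tie between animals of different doses, and the libraries were numbered in accession order. Each of 3 library indexes occurred once per dose, in the order of those numbers. With the index as a technical covariate, which ties no animals, no member was called. At 30 µg/kg the median log2 change of coding genes was 0.51 for exon lengths up to 1000 nt and -0.03 for 4000 to 8000 nt. The members measure 2486 to 6319 nt, and for 2000 to 4000 nt it was 0.03.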

Other observations

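Other genes of the brush border also varied with the clock score, in the model with the 4 dose groups. The disaccharidases Sis, sucrase-isomaltase, and Mgam, maltase-glucoamylase, both rose by 0.39 log2 per unit (edgeR adjusted p 0.000572 and 0.00113), and of 10 other brush border enzymes 4 rose and 0 fell. Of 11 genes of microvillus structure 4 rose, led by Ezr, ezrin (0.32, edgeR adjusted p 0.000231), and Myo7b (0.28, edgeR adjusted p 0.00188). Among the regulators of enterocyte identity, Prdm1 fell by 0.19 and Cdx2 by 0.16 (edgeR adjusted p 0.0133 and 0.0266). Of 19 cytosolic peptidases 3 rose, Acy3, Acy1 and Cndp2, and 1 fell, Rnpep, by 0.24 (edgeR adjusted p 0.000251). These genes were measured in the same 12 libraries as the peptidases. The genes were named after their values were seen.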
